A study of Mus musculus with 8 samples.

Results

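Rab GTPases are small proteins that direct vesicle traffic. Each Rab marks one kind of membrane, switches between a GDP-bound and a GTP-bound form, and in the GTP-bound form recruits tethers and motors that move and dock vesicles. They are held on membranes by prenyl lipids attached to cysteines at the end of the protein. In the kidney, Rabs are known for the uptake and recycling of filtered protein in the proximal tubule, the delivery of water channels in the collecting duct, and the turnover of slit diaphragm proteins in podocytes. The genes described here were chosen by their symbol, Rab followed by a number and at most a letter and a further number, which found 59 of the 55401 genes in the deposited table.

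The table holds kidney RNA from 8 diabetic mice with 1 library per mouse. The labels call 4 of them treated with recombinant fibroblast growth factor 4 (rFGF4) and the other 4 db/db model. The study's text gives PBS vehicle for the comparison group, and these 4 are called vehicle-treated here. The study used male mice and gave rFGF4 by intraperitoneal injection every other day. The labels name db/db mice, which lack a working leptin receptor and become obese and diabetic, whereas the study's text describes mice made diabetic with streptozotocin (STZ), a toxin of beta cells, and nothing in the files decides between them. The labels give no age for the sequenced mice, and no non-diabetic kidney was part of the comparison, so that every value comes from a diabetic animal. Values are given throughout for rFGF4-treated mice 1, 2, 3 and 5 and for vehicle-treated mice 2, 3, 4 and 5, in that order.

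Levels are given as FPKM, fragment numbers divided by exon length and by the mapped reads of each library, a measure per length that allows genes to be compared. The table holds no read counts, so the depth behind a value is unknown, and a value of 0.0001 stands where a gene was listed at 0. The summed FPKM of a library was 389407 to 552604, and the depth relative to vehicle mouse 2, read from the steps of low values, was 0.906 to 1.12. Differences between the groups were calculated on the scale log2(FPKM + 1), which understates the change of low genes, in the 15150 genes that reached 0.5 FPKM in 4 libraries or more. Of the 59 Rab genes, 49 passed this filter. The tissue was checked against its markers, and the markers of podocytes, proximal tubule, thick ascending limb, distal tubule, collecting duct, endothelium and macrophages all reached 0.5 FPKM in at least 1 library. The labels' protocol mentions an adipose type, but of 4 adipocyte markers Adipoq, Plin1 and Lep stayed below 0.5 FPKM. In 2 libraries, rFGF4 mouse 1 and vehicle mouse 5, the FPKM of 5 macrophage markers summed to 298 and 315, against 19.9 to 125 in the other 6 mice. The sum over 4 immunoglobulin and plasma cell genes reached 23838 FPKM in vehicle mouse 5, against 26.8 to 2811 in the others, and the sum over 7 proximal tubule markers was 451 FPKM in rFGF4 mouse 1, against 1066 to 1834. The sum over 5 red blood cell genes was 120, 1556, 437 and 2657 FPKM with rFGF4 and 3793, 4325, 2700.4 and 1139 FPKM with vehicle, with overlapping groups, and its part in the results was not tested. Of 50 tested marker genes, 2 had an unadjusted p under 0.05, a share near the 4.62% of all tested genes. The podocyte marker Synpo was higher with rFGF4 (log2 fold change 0.87, standard error 0.30) and the endothelial marker Tek lower (-0.38, standard error 0.16), both with overlapping groups, and their part in the Rab values was not tested. Results are also given without rFGF4 mouse 1 and vehicle mouse 5, the pair of mice rich in macrophage markers. In bulk kidney, fewer cells of a type cannot be told apart from less RNA per cell.

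The Rab family covered a range from abundant to nearly silent genes in these kidneys. A mean of at least 50 FPKM over the 8 mice was found for 4 Rab genes, 10 to 50 FPKM for 19, 1 to 10 FPKM for 22 and under 1 FPKM for 14. The 6 highest, Rab7, Rab5c, Rab2a, Rab1a, Rab1b and Rab5b, held 51.3% of the summed Rab FPKM. Rab7 lay above Rab5c and Rab5c above Rab2a in their full ranges over the mice, the ranges of Rab2a, Rab1a and Rab1b overlapped from one to the next, and Rab1b lay above Rab5b in every mouse. From Rab5b downwards, neighbours in the order of means, down to Rab35, had overlapping ranges. The 10 genes that did not pass the filter were Rab3c, Rab9b, Rab26, Rab27b, Rab30, Rab33a, Rab37, Rab39, Rab39b and Rab44, and their highest value in any mouse was 0.813 FPKM. Rab9b was listed at 0 in 7 of 8 mice. Rab1b, Rab5c and Rab5b varied least between mice. The coefficient of variation over the 8 mice was 4.92% for Rab1b, 5.76% for Rab5c and 6.24% for Rab5b, and the largest values among the tested genes were 69.1% for Rab31 and 99.7% for Rab7b.

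**Figure D1:**
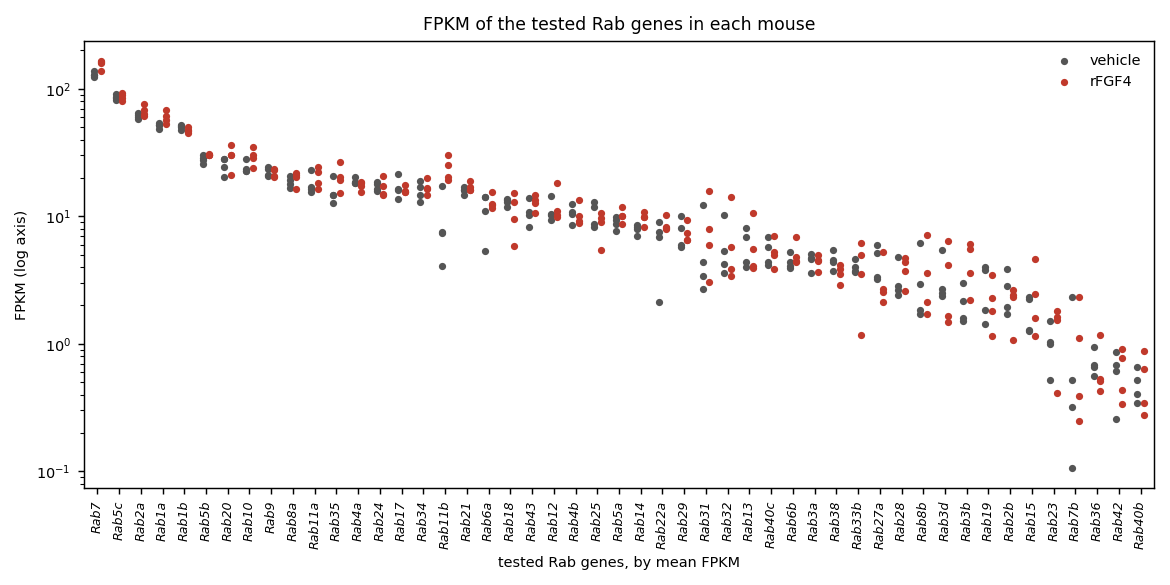
FPKM of the 49 tested Rab genes on a log axis, ordered by their mean over the 8 mice. Each point is 1 mouse, grey for vehicle and red for rFGF4. The points of Rab11b separate by group, and those of Rab31, Rab32 and Rab7b spread widely within both groups.

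The rFGF4 and vehicle groups were compared for each gene. The family was put forward with this contrast already known, so that the differences of its members are given as a description. Of the 49 tested Rab genes, 31 had a log2 fold change above 0 (63.3%), beside 67.1% of all tested genes, and the median was 0.09 in the Rab genes and 0.09 in all tested genes. With the libraries scaled to a common median ratio, the median of all tested genes shifted to -0.01 and 22 of 49 Rab genes lay above 0, beside 47.6% of all tested genes. An unadjusted p under 0.05 was found for 3 Rab genes that were higher, or 6.12%, beside 3.56% of all tested genes, and for 0 that were lower, beside 1.06%. At the study's threshold, which adds a fold change of at least 1.5, 2 Rab genes were higher, Rab11b and Rab3b, and 0 were lower, beside 1.09% and 0.436% of all tested genes. That split of all tested genes, 165 higher and 66 lower, became 93 and 81 after scaling. On the lower side, Rab38 reached an unadjusted p under 0.05 after scaling and without both macrophage-rich mice, and Rab27a without rFGF4 mouse 5. On the higher side, Rab35 did so without both macrophage-rich mice, without rFGF4 mouse 5 and without vehicle mouse 5. Rab10 did so without rFGF4 mouse 5, Rab14 without rFGF4 mouse 5 and with no filter on low values, and Rab43 without vehicle mouse 5. Leaving out these mice also raised the share of all tested genes with an unadjusted p under 0.05. It was 9.44% without rFGF4 mouse 5, 6.51% without vehicle mouse 5 and 5.68% without both macrophage-rich mice, beside 4.62% with all mice. The 4 rFGF4 mice all lay above the 4 vehicle mice in 1 Rab gene, Rab11b, and all below in 0, beside 2.66% and 0.667% of all tested genes. Of the 15150 tested genes, 0 had an adjusted p under 0.05 (limma with Benjamini-Hochberg adjustment; the smallest was 0.918), whereas 700 had an unadjusted p under 0.05. Without vehicle mouse 2, 4 or 5, 1 gene each had an adjusted p under 0.05 (smallest 0.0478, 0.0448 and 0.0374), and none of these was a Rab gene.

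**Figure D2:**
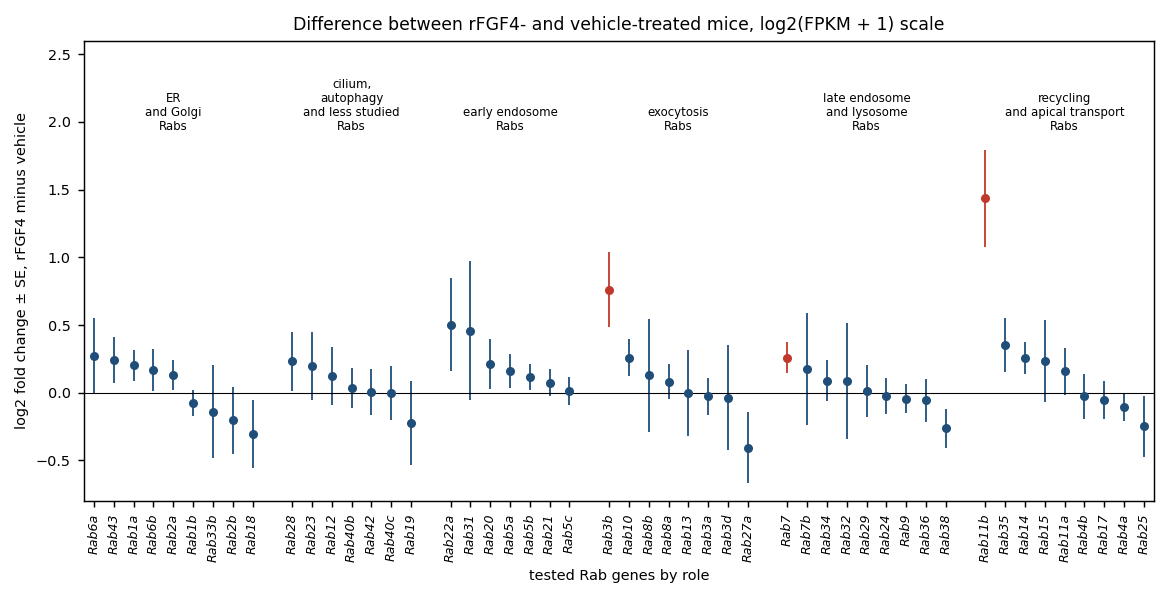
Log2 fold change (rFGF4 minus vehicle, on the log2(FPKM + 1) scale) of the 49 tested Rab genes with its standard error, grouped by role. Red marks the 3 genes with an unadjusted p under 0.05, namely Rab3b, Rab7 and Rab11b. Rab11b stands highest at 1.44, and the lowest, Rab27a, lies at -0.40.

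The recycling and apical transport Rabs carry internalised receptors, channels and membrane back to the cell surface. Rab11a, Rab11b and Rab25 form the Rab11 group, which marks recycling endosomes. Rab11b (ENSMUSG00000077450; chromosome 17 of GRCm38, 33742484 to 33760530, minus strand) was listed at 30.1, 25.3, 20.4 and 19.3 FPKM in rFGF4-treated mice and at 17.3, 4.07, 7.49 and 7.45 FPKM in vehicle-treated mice. Every rFGF4 mouse lay above every vehicle mouse, and vehicle mouse 2 stood close to the rFGF4 group, 2.05 FPKM below its lowest value. The mean was 23.8 ± 4.95 FPKM (SD, n = 4) with rFGF4 and 9.07 ± 5.70 FPKM (SD, n = 4) with vehicle, a log2 fold change of 1.44 (standard error 0.36). Without rFGF4 mouse 1 and vehicle mouse 5 the log2 fold change was 1.29, and with any single mouse left out it was 1.16 to 1.77.

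The paralogue Rab11a (ENSMUSG00000004771; chromosome 9, 64715299 to 64737758) was at 22.4, 18.1, 24.2 and 16.3 FPKM with rFGF4 and at 15.5, 16.3, 23.3 and 17.1 FPKM with vehicle. These groups overlapped, and the log2 fold change of 0.16 was smaller than its standard error of 0.17. A microRNA gene within its exons, Gm47308 (107 shared bases on the same strand), was listed at 56.1, 42.5, 0.134 and 0.170 FPKM with rFGF4 and at 36.5, 35.3, 35.1 and 44.3 FPKM with vehicle. It was low only in rFGF4 mice 3 and 5, and its part in the Rab11a values was not tested. Rab25, the epithelial member of the group, was at 5.47 to 10.6 FPKM with rFGF4 and 8.22 to 13.0 FPKM with vehicle, with a log2 fold change of -0.25 (standard error 0.22). The FPKM of Rab11b divided by that of Rab11a was 1.34, 1.40, 0.842 and 1.18 in rFGF4-treated mice and 1.12, 0.250, 0.322 and 0.436 in vehicle-treated mice. The group means of this ratio were 1.19 ± 0.251 and 0.531 ± 0.398 (SD, n = 4 each), and vehicle mouse 2 lay within the range of the rFGF4 group. The ratio within a mouse does not depend on how the libraries are scaled.

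Rab11b and Rab11a share 75.7% of their coding bases, and Rab25 shares 62.1% with Rab11a and 69.7% with Rab11b. All 3 carry a pair of cysteine codons at the same place near the end. The last 45 coding bases, read from the GENCODE M21 transcripts, are shown because this stretch holds the prenylated cysteines, whose codons are in capitals.
Rab11a: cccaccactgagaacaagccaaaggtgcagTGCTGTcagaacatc
Rab11b: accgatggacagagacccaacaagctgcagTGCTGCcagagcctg
Rab25: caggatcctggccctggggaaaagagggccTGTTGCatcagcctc

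The level of Rab11b is less certain than that of Rab11a, because a processed pseudogene, Rab11b-ps2 on chromosome 19 (7398424 to 7399077), carries almost the same coding sequence. Of 654 aligned bases, 1 differs, at position 152 counted from the first base of the start codon. The 41 bases around it are shown with the differing base in capitals.
Rab11b: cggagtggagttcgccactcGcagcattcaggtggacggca
Rab11b-ps2: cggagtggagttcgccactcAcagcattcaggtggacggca

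The pseudogene is listed separately in the table, at 16.9, 18.1, 17.3 and 15.4 FPKM with rFGF4 and 14.9, 9.69, 12.9 and 13.3 FPKM with vehicle. Its groups did not overlap either, and its log2 fold change was 0.40 (standard error 0.14). Reads from the coding part can be assigned to either locus. Of all 100-base stretches of the 6 Rab11b transcripts pooled, 455 of 6395 (7.11%) also occur in Rab11b-ps2. These transcripts are 503 to 6109 bases long, and the share within a single transcript was not calculated. The FPKM of both loci together was 47.0, 43.4, 37.7 and 34.7 in rFGF4-treated mice and 32.2, 13.8, 20.4 and 20.8 in vehicle-treated mice, again without overlap, and the log2 fold change fell to 0.92 (standard error 0.24). Rab11b divided by Rab11b-ps2 was 1.18 to 1.78 with rFGF4 and 0.420 to 1.16 with vehicle. A divergent noncoding gene on the opposite strand, Gm17251, overlaps 329 exon bases of Rab11b, and it was at 7.04, 8.41, 7.02 and 9.25 FPKM with rFGF4 and 7.30, 7.92, 7.75 and 7.47 FPKM with vehicle, with overlapping groups. Whether the division of reads between these loci contributes to the difference in Rab11b was not tested.

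**Figure D3:**
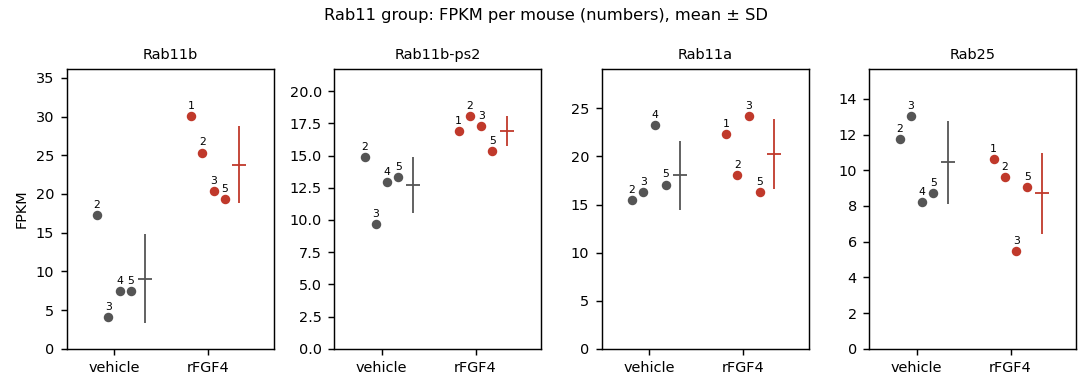
FPKM of Rab11b, its processed pseudogene Rab11b-ps2, Rab11a and Rab25 in each mouse (points, with the mouse number), and the group mean with SD (n = 4). Rab11b and Rab11b-ps2 lie higher in all 4 rFGF4 mice than in any vehicle mouse, whereas Rab11a and Rab25 overlap between the groups.

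The other recycling and apical transport Rabs were Rab4a, Rab4b, Rab14, Rab15, Rab17 and Rab35. Rab14, which acts between the Golgi and endosomes, was at 10.9, 9.80, 9.93 and 8.25 FPKM with rFGF4 and 8.32, 6.97, 8.004 and 8.53 FPKM with vehicle. Only rFGF4 mouse 5 fell within the vehicle range, and the log2 fold change was 0.26 (standard error 0.12), or 0.14 after scaling. Rab35, which controls fast recycling, had a log2 fold change of 0.35 (standard error 0.20), and its highest values, 26.8 and 20.8 FPKM, were in rFGF4 mouse 1 and vehicle mouse 5, without which it was also 0.35 (standard error 0.14). Rab4a, Rab4b and Rab17 had log2 fold changes of -0.11, -0.03 and -0.05, each with a standard error larger than its size except for Rab4a, at 0.10. Summed over the 9 genes of this role, the level was 129 ± 17.5 FPKM with rFGF4 and 109 ± 5.26 FPKM with vehicle (SD, n = 4 each), a difference of 19.9 FPKM, of which Rab11b held 14.7 FPKM.

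The late endosome and lysosome Rabs move cargo towards degradation. Rab7, the main Rab of late endosomes and lysosomes, had the highest level of the family (ENSMUSG00000079477; chromosome 6, 87999106 to 88045270, minus strand). It was at 165, 159, 163 and 138.1 FPKM with rFGF4 and 128, 125, 129 and 138.5 FPKM with vehicle. The groups overlapped only through mouse 5 of each, which differed by less than 1 FPKM, and the log2 fold change was 0.26 (standard error 0.11). With the libraries scaled to a common median ratio it was 0.13, and the unadjusted p was no longer under 0.05. Of the fits that left out 1 mouse, the one without rFGF4 mouse 5 alone kept it there, with a log2 fold change of 0.32, and without both mice rich in macrophage markers the log2 fold change was 0.26 with an unadjusted p above 0.05. Rab7 also has a processed copy, Rab7-ps1, with 10 differences in 622 aligned bases, which was at 9.31 to 11.3 FPKM with rFGF4 and 5.05 to 9.91 FPKM with vehicle. Rab7 ends in another cysteine pattern than the Rab11 group, shown by its last 45 coding bases with the cysteine codons in capitals.
Rab7: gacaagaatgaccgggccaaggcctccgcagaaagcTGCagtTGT

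Of the 9 tested genes of this role, 5 had a log2 fold change above 0 as deposited, beside 67.1% of all tested genes. After scaling 2 did, beside 47.6% of all tested genes. Rab38, which with Rab32 serves lysosome-related organelles, was at 4.17, 3.84, 3.52 and 2.87 FPKM with rFGF4 and 5.47, 4.35, 4.55 and 3.72 FPKM with vehicle. The lowest vehicle mouse lay within the rFGF4 range, and the log2 fold change was -0.26 (standard error 0.15), or -0.37 after scaling and -0.39 without the pair of mice. Rab9, which returns receptors from late endosomes to the Golgi, was at 20.3 to 23.6 FPKM with rFGF4 and 20.8 to 24.5 FPKM with vehicle. Rab24, a Rab linked to autophagy, was at 14.6 to 20.9 and 15.8 to 18.6 FPKM, but 62.4% of its exon bases overlap Prelid1 on the opposite strand, which was listed at 82.5 to 95.8 FPKM. The strand setting of the counting is not given in the sources used here, so reads of the 2 genes may not have been told apart.

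The exocytosis Rabs bring vesicles to the plasma membrane. Rab3b, a regulator of secretory vesicles (ENSMUSG00000003411; chromosome 4, 108879063 to 108943324, plus strand), was at 3.58, 6.06, 5.58 and 2.23 FPKM with rFGF4 and 1.51, 3.01, 1.60 and 2.18 FPKM with vehicle. The groups overlapped, with rFGF4 mouse 5 below vehicle mouse 3. Its log2 fold change was 0.76 (standard error 0.28), it ranged from 0.61 to 0.98 with 1 mouse left out, and the unadjusted p rose above 0.05 when mouse 2 or 3 of the rFGF4 group, or mouse 2 or 4 of the vehicle group, was left out. It was 0.84 without the pair of mice rich in macrophage markers, where the unadjusted p was also above 0.05. The level of this gene was low. An antisense gene at the same locus, 8030443G20Rik, overlaps 317 of its exon bases and was listed at 0 in all 8 mice.

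Rab10, which moves glucose transporter vesicles to the surface, was at 34.7, 30.3, 28.8 and 24.0 FPKM with rFGF4 and 22.8, 22.8, 23.7 and 27.9 FPKM with vehicle. Here rFGF4 mouse 5 and vehicle mouse 5 crossed, and the log2 fold change was 0.26 (standard error 0.14), or 0.13 after scaling. Rab8a, which serves apical delivery and cilium formation, was at 21.7, 20.98, 20.4 and 16.4 FPKM with rFGF4 and 17.9, 19.3, 16.6 and 20.8 FPKM with vehicle. Its log2 fold change of 0.08 (standard error 0.13) became -0.04 after scaling. Rab27a, which acts in the docking of lysosome-related organelles and exosomes, was at 2.54, 2.69, 2.13 and 5.28 FPKM with rFGF4 and 3.24, 5.93, 5.15 and 3.36 FPKM with vehicle. It had the lowest log2 fold change of the family, -0.40 (standard error 0.26). Mouse 5 of the rFGF4 group stood above the other 3, and without it the log2 fold change was -0.62.

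**Figure D4:**
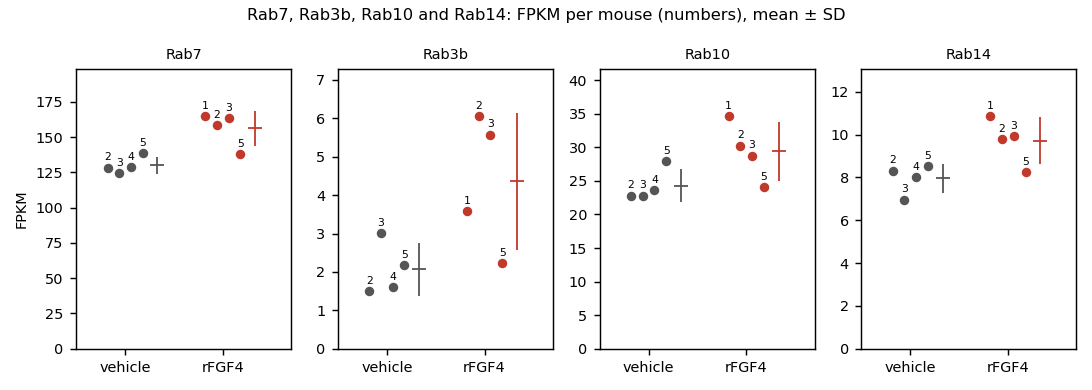
FPKM of Rab7, Rab3b, Rab10 and Rab14 in each mouse (points, with the mouse number), and the group mean with SD (n = 4). In all 4 genes rFGF4 mouse 5 lies lowest of its group and within the range of the vehicle mice.

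The early endosome Rabs receive what has just been taken up. Rab5a, Rab5b and Rab5c are the isoforms that drive fusion of early endosomes, and Rab5c was by far the most abundant of them. Rab5c was at 79.6, 90.1, 93.3 and 84.2 FPKM with rFGF4 and 84.0, 91.9, 86.4 and 81.4 FPKM with vehicle, with a log2 fold change of 0.01 (standard error 0.11) that became -0.11 after scaling. Rab5b was at 30.7, 30.5, 30.5 and 30.4 FPKM with rFGF4 and 28.7, 25.6, 27.7 and 30.4 FPKM with vehicle. The rFGF4 mice were alike, and the log2 fold change of 0.12 (standard error 0.10) became -0.01 after scaling. Rab22a, an early endosome Rab related to Rab5, was at 7.997, 10.3, 8.31 and 8.07 FPKM with rFGF4 and 6.95, 2.11, 7.59 and 8.96 FPKM with vehicle. Its log2 fold change of 0.50 (standard error 0.34) was, after Rab11b and Rab3b, the highest of the family and rested on vehicle mouse 3, without which it was 0.13. All 7 genes of this role had a log2 fold change above 0 as deposited, beside 67.1% of all tested genes. After scaling 4 of 7 did, beside 47.6% of all tested genes.

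The ER and Golgi Rabs serve the secretory route. Rab2a, which acts between the ER and Golgi, was at 76.2, 68.5, 64.0 and 61.2 FPKM with rFGF4 and 65.0, 57.7, 59.8 and 62.7 FPKM with vehicle, with a log2 fold change of 0.13 (standard error 0.11) that became 0.0048 after scaling. Rab1a, required for ER to Golgi transport, was at 56.5, 61.1, 68.6 and 53.1 FPKM with rFGF4 and 54.1, 52.1, 51.7 and 48.8 FPKM with vehicle. Its close relative Rab1b was at 50.6, 47.7, 44.8 and 46.9 FPKM with rFGF4 and 51.0, 49.7, 47.8 and 52.0 FPKM with vehicle. Their log2 fold changes were 0.20 (standard error 0.11) and -0.08 (standard error 0.10), and both pairs of groups overlapped. After scaling they were 0.075 and -0.20. Rab18, linked to the ER and lipid droplets, was at 15.2, 5.89, 9.54 and 13.0 FPKM with rFGF4 and 13.8, 11.9, 13.5 and 12.9 FPKM with vehicle. The rFGF4 mice spread on both sides of the vehicle mice, and the log2 fold change was -0.30 (standard error 0.25). It was -0.065 without rFGF4 mouse 2 and -0.48 without rFGF4 mouse 1. Of the 9 tested genes of this role, 5 lay above 0 as deposited, beside 67.1% of all tested genes. After scaling 5 did, beside 47.6% of all tested genes. Rab43 and Rab2b share exon bases with another annotated gene, 75.4% with Gm45140 and 59.3% with Gm43766, which were at most 0.147 and 0.192 FPKM.

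Several Rabs were highest in the 2 libraries with the most macrophage marker RNA. Rab31, Rab32 and Rab7b, of which Rab32 and Rab7b are known from immune cells and lysosome-related organelles, are shown here. They were picked from the genes with a wide spread, after their values were seen. Rab8b was also highest in these 2 libraries and is not shown. Its coefficient of variation was 62.1%, beside 60.8% for Rab32. Rab31 was at 15.7, 7.94, 5.95 and 3.03 FPKM with rFGF4 and 3.42, 4.40, 2.69 and 12.3 FPKM with vehicle. Rab32 was at 14.1, 5.77, 3.87 and 3.39 FPKM with rFGF4 and 4.20, 5.34, 3.62 and 10.3 FPKM with vehicle, and Rab7b at 2.31, 1.11, 0.389 and 0.247 FPKM with rFGF4 and 0.322, 0.523, 0.107 and 2.32 FPKM with vehicle. In each, rFGF4 mouse 1 and vehicle mouse 5 were the highest and the treatment groups overlapped. The same pair of mice held the 2 highest values in 15 of 49 tested Rab genes (30.6%), beside 32% of all tested genes, a share near that background. Macrophage markers moved in the same libraries, with sums of 298, 125, 39.5 and 29.3 FPKM with rFGF4 and 19.9, 80.1, 21.8 and 315 FPKM with vehicle. All 5 markers were detected, and their part in the Rab values was not tested.

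**Figure D5:**
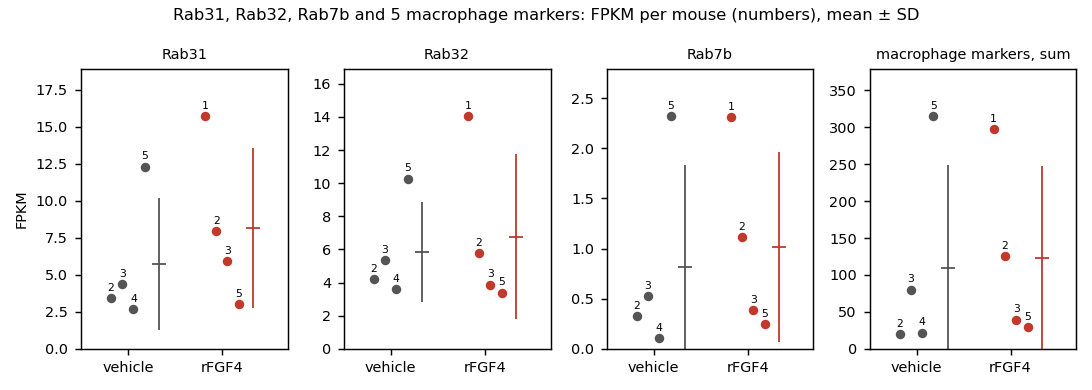
FPKM of Rab31, Rab32, Rab7b and the sum of 5 macrophage markers (Cd68, Adgre1, Csf1r, Cd14, C1qa) in each mouse (points, with the mouse number), and the group mean with SD (n = 4). In every panel rFGF4 mouse 1 and vehicle mouse 5 lie above the other 6 mice.

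The table annotates 5 Rab genes to AMPK signalling, the pathway by which cells respond to low energy and which the study examined. They are Rab2a, Rab8a, Rab10, Rab11b and Rab14, and their values are given above. All 5 had a log2 fold change above 0 as deposited, beside 67.1% of all tested genes, with a median of 0.26 beside 0.09. After scaling the median was 0.13 beside -0.01, Rab2a stood at 0.0048 and Rab8a lay below 0. The annotation covers 25 of the 59 Rab genes and places 12 of them in endocytosis. It places 5 in the reabsorption of water under vasopressin, namely Rab5a, Rab5b, Rab5c, Rab11a and Rab11b, of which Rab11b alone was past the study's threshold, beside 1.09% of all tested genes that were higher and 0.436% that were lower.

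The family shares features that its symbols do not define. The genes lie on 18 chromosomes, 4 of them on the X chromosome, and their coding sequences end in 1 of 5 cysteine patterns. With C for a cysteine codon and x for any other, the last 4 codons read xCxC in 20 genes, as in Rab7 and Rab3b, xxCC in 15 genes and Cxxx in 15 genes, as in the Rab11 group. They read CCxx in 6 genes, among them Rab5a, Rab5b and Rab5c, and xCCx in 3 genes. The 18 related pairs compared shared 62.1% to 78.5% of their coding bases, the closest being Rab6a and Rab6b. The exons of 20 Rab genes overlap those of another annotated gene. Besides the overlaps given above, Rab4b shares 65.0% of its exon bases with Gm21983, which was at most 0.0801 FPKM, and Rab20 shares 25.6% with E230013L22Rik, at 2.78 to 4.45 FPKM. Rab6a shares 19.0% with Mrpl48, at 2.94 to 4.87 FPKM, and Rab33b and Rab39b share 18.7% with Gm38160 and 18.6% with Gm15063, which were at most 0.148 and 0.198 FPKM. The FPKM summed over all 59 genes was 977, 889, 860 and 779.7 in rFGF4-treated mice and 787, 784, 750.3 and 848 in vehicle-treated mice. The groups overlapped, with means of 876 ± 81.6 and 792 ± 40.6 FPKM (SD, n = 4 each), and the difference of 84.2 FPKM was 8.07 FPKM after scaling.

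The proteins that operate the Rabs were taken from a list compiled by function. GEFs load a Rab with GTP, GAPs end its active state, effectors carry out its work, and the REP, GDI and prenyl transferase genes attach the lipid and recycle the Rab. Of 135 such genes in the table, 125 were tested, and 93 of them had a log2 fold change above 0 (74.4%), beside 67.1% of all tested genes. After scaling it was 69 of 125 (55.2%), beside 47.6%. An unadjusted p under 0.05 was found for 8 that were higher (6.40%), beside 3.56%, and 0 that were lower, and 7 had groups that did not overlap, all higher, beside 2.66%. After scaling, 5 of 125 had an unadjusted p under 0.05 in either direction, beside 4.69% of all tested genes. A log2 fold change above 0 was found for 34 of 40 GEFs, 23 of 35 GAPs, 30 of 44 effectors and 6 of 6 prenylation and recycling genes. Rab3gap1 and Rab3gap2, which are named as GAPs, were counted among the GEFs, with log2 fold changes of 0.11 and 0.21.

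Of the 125 tested machinery genes, 3 (2.40%) passed the study's threshold, all with higher levels in rFGF4-treated mice, beside 1.09% of all tested genes that were higher and 0.436% that were lower, and 2 of them are described here. After scaling 1 of 125 passed it (0.80%), beside 1.15% of all tested genes, and without the pair of mice rich in macrophage markers 1 passed it, beside 1.80%. Micall1, an effector at recycling endosomes, was at 12.1, 10.1, 6.42 and 1.23 FPKM with rFGF4 and 1.17, 0.885, 2.34 and 0.946 FPKM with vehicle. All rFGF4 mice but mouse 5 stood far above the vehicle mice, with a log2 fold change of 1.62 (standard error 0.53) that was 1.25, with an unadjusted p above 0.05, without the pair of mice rich in macrophage markers. Fyco1, a Rab7 effector that moves autophagosomes, was at 5.78, 4.89, 5.09 and 5.44 FPKM with rFGF4 and 0.888, 4.44, 4.39 and 1.04 FPKM with vehicle. Its groups did not overlap, but the vehicle mice fell into a low and a high pair. The log2 fold change of 0.95 (standard error 0.37) kept an unadjusted p under 0.05 in 2 of the 8 fits with 1 mouse left out, those without vehicle mouse 3 or vehicle mouse 4, and lost it after scaling, at 0.84. Without the pair of mice it was 0.69 and the unadjusted p was above 0.05.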

How the data were processed

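Poly(A) RNA of 8 mouse kidneys was sequenced in paired ends. The authors assembled mapped reads with StringTie, merged transcripts with gffcompare and deposited 1 table of FPKM per gene. The submitters' processing notes name HISAT2 2.0, StringTie 1.3.0, Bowtie 0.12.2 and the build mm8 without roles. Of the gene identifiers, 99.53% are in GENCODE M21 (GRCm38), from which positions and sequences were taken. The authors' own comparison columns (a fold change, its log2, a p-value and a q-value, as deposited) were not used.

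Genes that reached 0.5 FPKM in at least 4 libraries were compared as log2(FPKM + 1), with a pseudocount of 1, in limma 3.58.1 (R 4.3.3) with a trend and Benjamini-Hochberg adjustment over all tested genes. The methods name edgeR, which needs counts that the table does not hold. Groups came from the labels, the name vehicle came from the study's text, and nothing says that the libraries differ by batch. Where no counts exist, depth is unknown and no counting interval was calculated. Alternatives were another pseudocount, no filter, scaling to a common median ratio, no trend, a larger fold change, a replicate block and each mouse left out. Leaving out both macrophage-rich mice and summing Rab11b with its pseudogene were added after seeing the data.

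The members and gene lists were chosen with earlier results of these data known. Members named with all values are those past the study's threshold, those whose groups did not overlap, those annotated to AMPK signalling, the 6 with the highest mean, and the 3 highest and 3 lowest log2 fold changes, and machinery genes are those past the threshold, of which the result of 1 is not reported here. Rab11a, Rab31, Rab32 and Rab7b were added after their values were seen. Genes whose exons overlap a Rab gene are named where they share at least 18.6% of its exon bases or lie at Rab3b, Rab11a, Rab11b or Rab24, and the others are counted. Sequences come from GENCODE M21 transcripts and were aligned with Biopython 1.88, and matplotlib 3.10.9 (Python 3.11.15) drew the figures.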

Additional observations from a re-analysis of the deposited data

Results flagged for a closer look

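In 98 groups of 4 mice, 6 held a mouse far from the other 3, where chance gives about 1 in 20, or 4.9. The gap to the nearest mouse, as a share of the group's range on the log2(FPKM + 1) scale, exceeded Dixon's limit for 4 values in each. On FPKM itself 4 of the 6 exceeded it, and Rab2b (0.793) and Rab23 (0.795) did not. Among the vehicle-treated mice, mouse 2 was high in Rab4a at 20.4 FPKM (share 0.843), and mouse 5 was high in Rab3d at 5.47 FPKM (share 0.868). Among the rFGF4-treated mice, mouse 2 was high in Rab22a at 10.3 FPKM (share 0.846) and mouse 5 was low in Rab23 at 0.412 FPKM (share 0.844). In the same group, mouse 1 was low in Rab2b at 1.07 FPKM (share 0.834) and high in Rab36 at 1.18 FPKM (share 0.835). The high values of Rab3d and Rab36 fell in the 2 libraries with the most macrophage marker FPKM, whose part in them was not tested.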

How the results depend on the processing

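Of all results and settings, Rab11b kept an unadjusted p under 0.05 in every alternative run. Other counts moved. With a fold change of 2, 54 genes and 1 Rab gene passed the threshold, and with a pseudocount of 0.1, 348 genes did. Scaling to a common median ratio gave a median Rab log2 fold change of -0.028, 5 machinery genes at an unadjusted p under 0.05, beside 4.69% of all tested genes, and a difference in summed Rab FPKM of 8.07. Without both macrophage-rich mice, 1 Rab gene passed the threshold, beside 273 of all tested genes, and 5 of 125 machinery genes had an unadjusted p under 0.05, beside 5.68% of all tested genes. With 1 mouse left out, the threshold was passed by 187 to 575 genes, highest without rFGF4 mouse 5 (432 without vehicle mouse 5), and by 1 to 3 Rab genes. An unadjusted p under 0.05 was then found for 1 to 7 Rab genes and 4 to 12 machinery genes. For the Rab genes it was 7, or 14.3%, without rFGF4 mouse 5, beside 9.44% of all tested genes. It was 4, or 8.16%, without vehicle mouse 5, beside 6.51%. It was 1 without rFGF4 mouse 2 or 3 or vehicle mouse 2 or 4, beside 2.84% to 3.32%. The machinery counts were near the share of all tested genes. They were 12 (9.6%) without rFGF4 mouse 5, beside 9.44%, and 4 (3.2%) without rFGF4 mouse 2, beside 2.84%. Without vehicle mouse 3 the count was also 4 (3.2%), beside 3.21%. The median Rab log2 fold change was -0.0085 (without rFGF4 mouse 1) to 0.17, the difference in summed FPKM 50.6 to 116, and the difference in the Rab11b to Rab11a ratio 0.568 to 0.857. The cause was not tested.

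Numbers 2, 3 and 5 occur in both groups, and the labels do not say whether they pair the mice. Deviations of same-numbered mice correlated at -0.229, -0.155 and -0.393. These values cannot decide it, because the correlations of differently numbered mice spread more widely. They ran from -0.562 (rFGF4 mouse 3 with vehicle mouse 5) to 0.567 (rFGF4 mouse 1 with vehicle mouse 5). With a replicate block, which compares fewer mice, 1 Rab gene passed the threshold and 1 had an unadjusted p under 0.05, beside 262 and 394 of all tested genes, the median Rab log2 fold change was -0.044, and that of Rab11b was 1.29. Without counts, the precision of low values cannot be given.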
